A study of Mus musculus with 2 samples.

Results

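The transcription factor p53, encoded by Trp53, and 9 of its classical target genes were examined in spatial expression data from hearts of TOP2B transgenic mice. The 10 genes were taken by symbol: Trp53, Cdkn1a, Mdm2, Ccng1, Gdf15, Gadd45a, Bax, Bbc3, Sesn2 and Phlda3. All 10 were among the 19465 genes counted, each with a single entry, and all had at least 20 unique molecular identifiers (UMIs) over both sections, a filter that 15236 genes passed.

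The data hold 1 heart section from a control α-MHC-MerCreMer+/− mouse and 1 from a TOP2B transgenic mouse, α-MHC-MerCreMer+/− with hTOP2B LSL/−. Both mice carried the tamoxifen-dependent Cre recombinase under the α-MHC promoter, which is active in cardiomyocytes, and both were given a single intraperitoneal tamoxifen dose of 80 mg/kg. In the transgenic mouse, Cre removes a STOP cassette and a human TOP2B cDNA at Rosa26 is then driven by the CAG promoter, so the control shares Cre and tamoxifen but not the transgene. The study's methods describe the controls as siblings of the same age. The formalin-fixed, paraffin-embedded hearts were cut at 5 μm and read with the Visium CytAssist assay, which counts gene-specific probes by UMI on an array of barcoded spots.

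p53 is held at a low level in resting cells, mainly by the ubiquitin ligase MDM2, and accumulates after DNA damage, when it turns on genes for cell cycle arrest, cell death, DNA repair and secreted stress signals. Most of this control acts on the p53 protein, which was not measured here. In the heart, p53 is studied as a mediator of anthracycline injury, and TOP2B, the topoisomerase that cuts both DNA strands in non-dividing cells, is the enzyme on which anthracyclines act there.

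The control section had 1256 spots and 14376300 UMIs (median 11335.5 per spot), and the transgenic section had 924 spots and 12953389 UMIs (median 14531 per spot). Levels are UMIs per 1000000 of the section's total (CPM), and differences are log2 ratios of transgenic over control CPM. Ranges in parentheses are 95% intervals of counting error only, and with 1 section per genotype there is no replicate, no test and no p value. The sections had 725 spot barcodes in common, as sections captured on arrays with the same barcodes do. A spot covers several cells, so more cells of a type and more RNA per cell cannot be told apart. All 7 cardiomyocyte markers were present in both sections, with summed levels of 33861 CPM (control) and 30337 CPM (transgenic). Tnnt2, the highest of them, gave 13091 and 14721 CPM of these sums. Of the 7 markers, 2 had a log2 ratio above 0, against 63.2% of all genes, and their median was −0.42. The transgenic section stood apart in its erythroid markers (20420 against 2146 CPM), fibroblast markers (3423 against 1457 CPM) and macrophage markers (493 against 244 CPM). Mouse Top2b, whose probes need not detect the human cDNA, was at 106 CPM (control) and 102 CPM (transgenic) (log2 ratio −0.07, −0.17 to 0.04).

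Of the 10 genes, 8 had a log2 ratio above 0, where the share over all 15236 genes was 63.2%. A log2 ratio of at least 1, that is at least 2-fold higher, was found for 4 of the 10 (Gdf15, Cdkn1a, Phlda3 and Bbc3), against 13.7% of all genes. None reached a log2 ratio of −1 or lower, against 5.61% of all genes. The median log2 ratio was 0.61 for the 10 genes and 0.20 for all genes, and 7 of the 10 lay above the latter value. Scaling by TMM factors moved the median of all genes from 0.20 to 0.05, with 52.4% of genes above 0. Bbc3 lay under a log2 ratio of 1 with TMM factors (0.89), DESeq2 size factors (0.89) and in the 50% of spots richest in cardiomyocyte markers (0.50), and just under it (0.96 to 0.99) with the 50 most abundant genes left out of the totals, with the mean taken over spots or with 1 CPM added, which left 3 of the 10 each time. In those cardiomyocyte-rich spots 6 of the 10 genes lay above the median of all genes. The genes did not differ as one group: Cdkn1a and Gdf15 were more than 10-fold higher, Mdm2 was at the same level within its counting error, and Ccng1 and Gadd45a were lower.

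**Figure D1:**
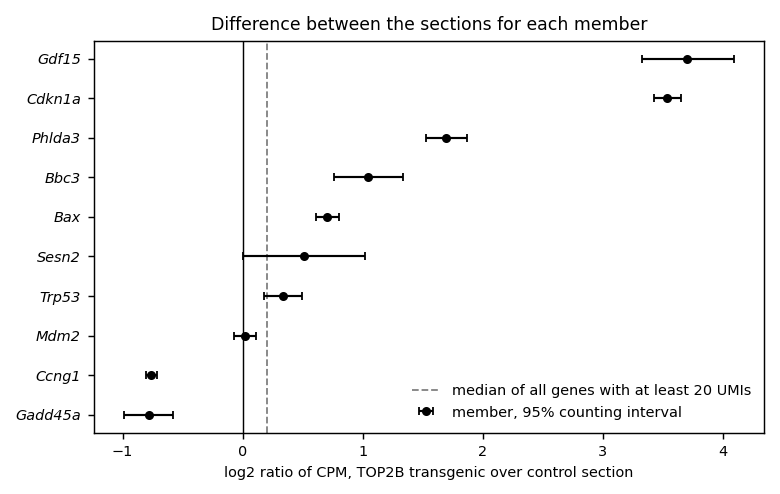
Log2 ratio of CPM, transgenic over control section, for each of the 10 genes (points) with its 95% counting interval (bars); the solid line marks 0 and the dashed line the median of all genes with at least 20 UMIs (0.20). Gdf15 and Cdkn1a stand at 3.70 and 3.54, and Ccng1 and Gadd45a lie on the other side of 0 at −0.76 and −0.78.

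The p53 transcript itself differed little. Trp53 (ENSMUSG00000059552) had 639 UMIs and 44.4 CPM (41.1 to 48.0) in the control section and 727 UMIs and 56.1 CPM (52.1 to 60.4) in the transgenic section. Its log2 ratio was 0.34 (0.18 to 0.49), which is 0.13 above the median of all genes. Over 4 quadrants cut at the middle of each section, Trp53 ran from 39.8 to 48.6 CPM in the control and from 52.0 to 62.6 CPM in the transgenic. The ranges did not touch in CPM, by a narrow gap, and the quadrants were not rescaled by TMM factors. Such a separation is common here: the 4 transgenic quadrants lay above the 4 control quadrants for 30.3% of all genes and below them for 13.1%. Trp53 was counted in 38.4% of control spots (35.7 to 41.1) and 51.6% of transgenic spots (48.4 to 54.9). When every spot was thinned to 8134 UMIs, leaving aside the 140 control spots and 78 transgenic spots of lower depth, the shares were 30.1% and 36.5%.

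Mdm2 (ENSMUSG00000020184), the p53 target that encodes the ligase marking p53 for degradation, was at 137 CPM (131 to 143) in the control section and reached 138 CPM (132 to 145) with the transgene. The log2 ratio of 0.02 had an interval from −0.08 to 0.11, so the level was the same within counting error. The quadrants overlapped, from 130 to 145 CPM in the control and from 127 to 149 CPM in the transgenic. Relative to the median of all genes Mdm2 was lower by 0.19 on the log2 scale, and TMM scaling gave a log2 ratio of −0.14.

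Of the genes that encode regulators of p53, 17 were measured and 13 had a log2 ratio above 0, against 63.2% of all genes. Their median was 0.23, close to that of all genes. Mdm4, the MDM2 partner that binds p53, was at 11.5 and 14.1 CPM (log2 ratio 0.28, −0.03 to 0.60). Atr, a kinase that signals stalled replication, was at 1.25 and 3.40 CPM (log2 ratio 1.44, 0.62 to 2.32), a difference that rests on 18 and 44 UMIs. Trp63, a relative of p53, had the highest ratio of the list at 2.35 (1.69 to 3.07), from 23 and 106 UMIs. Hipk2, a kinase that phosphorylates p53, had the lowest ratio at −1.14 (−1.31 to −0.98), with 1038 and 423 UMIs. The damage kinase Atm was at 4.31 and 3.94 CPM, with an interval that spans 0 (−0.70 to 0.43).

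Cdkn1a showed the clearest difference among the targets of cell cycle arrest. The gene (ENSMUSG00000023067) encodes p21, an inhibitor of cyclin-dependent kinases. It had 726 UMIs in the control section, 50.5 CPM (46.9 to 54.3), and 7598 UMIs in the transgenic one, 587 CPM (573 to 600). This is 11.6-fold higher (10.8 to 12.6), a log2 ratio of 3.54 (3.43 to 3.65), and 97 of the 15236 genes had a ratio at or above it. The control quadrants lay between 45.6 and 55.3 CPM and the transgenic quadrants between 562 and 601 CPM. The groups of quadrants lay far apart, and the transgenic quadrants were close to each other. Cdkn1a was counted in 41.3% of control spots (38.6 to 44.1) and in 95.8% of transgenic spots (94.3 to 97.0), and after thinning in 32.3% and 98.7%. The median spot held 0 Cdkn1a UMIs in the control and 8 in the transgenic section, and the highest spots held 7 and 32.

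The promoter window of Cdkn1a held a close match to the p53 response element, the pair of adjacent decamers to which the p53 tetramer binds. RefSeq windows from 250 bases before to 50 bases after the start (build GRCm38.p6) were found for all 10 genes, 14 windows in all. A match with at most 1 mismatch, the C and G of each decamer kept and no spacer between decamers, was in 0.067% of 32851 windows of all genes. The decamer is its own reverse complement, so a scan of 1 strand covers both. Among the windows of the 10 genes, such a match was found only in those of Cdkn1a and Ccng1. These stretches are shown because they belong to a gene that was far higher, as Gdf15 also was, and to a gene that was lower. Capitals mark the match, which lies 51 to 32 bases before the start in Cdkn1a (the first of its 2 windows, plus strand, chr17:29090913-29090962) and 195 to 176 bases before the start in Ccng1 (minus strand, chr11:40755447-40755496).
Cdkn1a: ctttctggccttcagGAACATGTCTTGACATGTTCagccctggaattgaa
Ccng1: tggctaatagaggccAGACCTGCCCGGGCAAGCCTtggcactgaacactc

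Trp53 and Bbc3 windows held matches with 3 mismatches, a degree found in 1.38% of all windows, and the windows of Gdf15, Mdm2, Gadd45a, Bax, Sesn2 and Phlda3 held none that close. The match is a description of these letters and no evidence of binding. A missing match holds only for these windows and settings, since the rest of each gene was not searched. The other Cdkn1a window had 7 mismatches at best. The genes with the closest matches thus stood at log2 ratios of 3.54 and −0.76.

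Ccng1 (ENSMUSG00000020326) encodes cyclin G1, a p53 target that feeds back on p53 through MDM2. It had 11356 UMIs in the control section, 790 CPM (775 to 805), and 6043 UMIs in the transgenic one, 467 CPM (455 to 478). The log2 ratio was −0.76 (−0.81 to −0.71). Control quadrants lay between 740 and 808 CPM and transgenic quadrants between 418 and 518 CPM, without overlap. The share of spots with a Ccng1 UMI was 99.2% and 95.7%.

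Gadd45a (ENSMUSG00000036390), whose product acts in growth arrest and DNA repair, was also lower, with 574 UMIs and 39.9 CPM (36.7 to 43.3) in the control section, against 301 UMIs and 23.2 CPM (20.7 to 26.0) in the transgenic section. The log2 ratio was −0.78 (−0.99 to −0.58), and the quadrants, from 32.2 to 44.6 CPM and from 16.2 to 29.6 CPM, did not overlap. Its relatives Gadd45b and Gadd45g were higher in the transgenic section. Gadd45b was at 18.0 and 45.6 CPM (log2 ratio 1.34, 1.13 to 1.56), and Gadd45g at 26.2 and 81.4 CPM (log2 ratio 1.63, 1.46 to 1.81). Gadd45gip1, a mitochondrial protein gene named for binding GADD45 proteins, had a log2 ratio of −0.80 (−0.88 to −0.72).

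**Figure D2:**
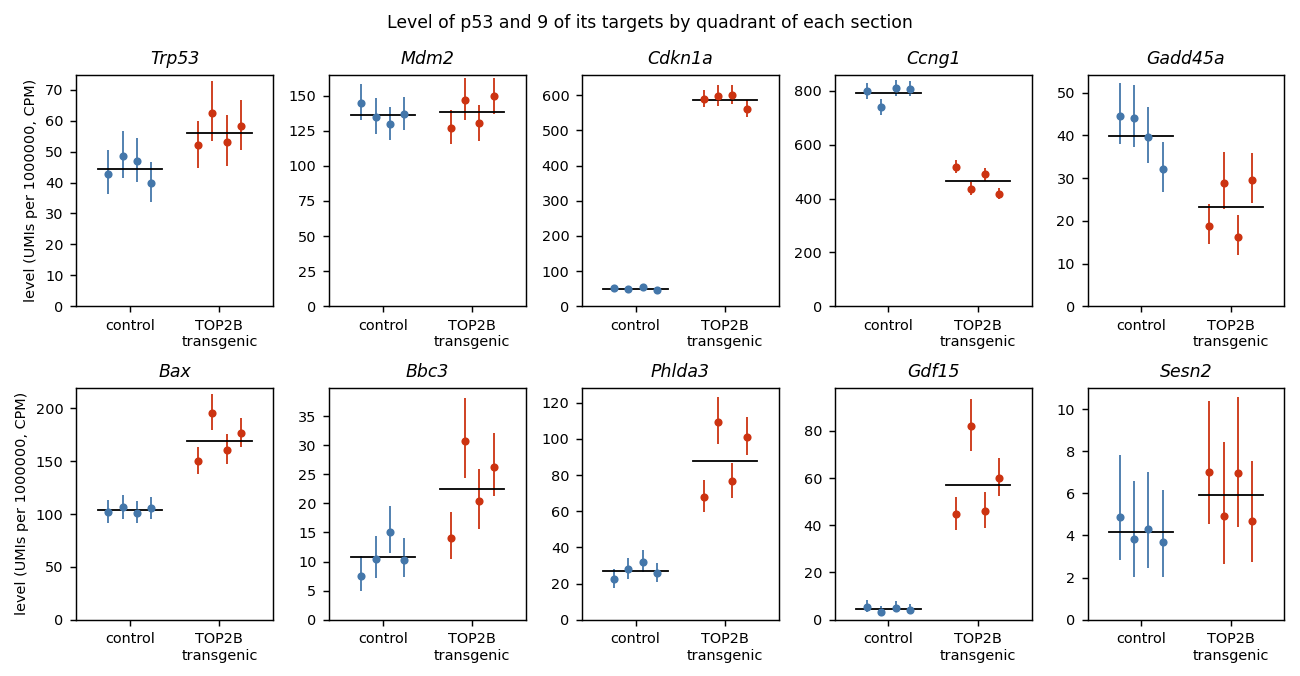
Level in CPM (vertical axes, each from 0) of each gene in the 4 quadrants of the control section (blue) and the TOP2B transgenic section (red), with 95% counting intervals as bars and the level of the whole section as a black line; quadrants are in the order lower left, lower right, upper left, upper right. The ranges do not overlap for Trp53, Cdkn1a, Bax, Phlda3 and Gdf15, which were higher in the transgenic section (30.3% of all genes). Nor do they for Ccng1 and Gadd45a, which were lower (13.1% of all genes), and they overlap for Mdm2, Bbc3 and Sesn2.

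Both cell death genes were higher in the transgenic section. Bax (ENSMUSG00000003873), the pore-forming member of the BCL-2 family, was at 104 CPM (98.6 to 109) in the control section against 169 CPM (162 to 177) with the transgene. The log2 ratio was 0.71 (0.61 to 0.80). Control quadrants lay between 101 and 106 CPM and transgenic quadrants between 150 and 196 CPM. Bbc3 (ENSMUSG00000002083), which encodes the BH3-only protein PUMA, had 156 UMIs and 10.9 CPM (9.22 to 12.7) in the control section, against 290 UMIs and 22.4 CPM (19.9 to 25.1) in the transgenic section. Its log2 ratio was 1.04 (0.76 to 1.34), but the lowest transgenic quadrant, at 14.0 CPM, was below the highest control quadrant, at 15.1 CPM. After thinning, Bax was in 56.9% and 74.5% of spots and Bbc3 in 8.0% and 15.9%.

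Phlda3 (ENSMUSG00000041801), whose product competes with AKT for membrane lipids, followed in size of difference. It had 389 UMIs and 27.1 CPM (24.4 to 29.9) in the control section, against 1137 UMIs and 87.8 CPM (82.7 to 93.0) in the transgenic section. The log2 ratio was 1.70 (1.53 to 1.87), and 746 genes had a ratio at or above it. The control quadrants lay between 22.5 and 32.1 CPM and the transgenic quadrants between 68.0 and 110 CPM, without overlap.

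Gdf15 (ENSMUSG00000038508) encodes a secreted cytokine of the TGF-β superfamily that acts on GFRAL in the hindbrain and lowers appetite, and it is raised in blood in heart failure. It had the highest ratio of the 10 genes. In the control section it was scarce, at 63 UMIs and 4.38 CPM (3.37 to 5.61), and in the transgenic section it reached 737 UMIs and 56.9 CPM (52.9 to 61.2). The difference was 13.0-fold (10.0 to 17.1), a log2 ratio of 3.70 (3.33 to 4.09), with 86 genes at or above it. Control quadrants lay between 3.26 and 5.18 CPM and transgenic quadrants between 44.7 and 82.0 CPM. It was counted in 4.7% of control spots (3.6 to 6.0) and 46.3% of transgenic spots (43.1 to 49.6), and after thinning in 3.2% and 33.3%. For comparison, 13 genes of photoreceptors, exocrine pancreas and sperm, which heart cells do not use, ranged from 0.15 to 2.24 CPM over both sections, so control Gdf15 stood only a little above that stray signal. Its receptor Gfral had 8 and 6 UMIs, within stray signal, and the coreceptor Ret was at 7.16 and 4.01 CPM (log2 ratio −0.84, −1.35 to −0.34).

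Sesn2 (ENSMUSG00000028893), a stress-inducible inhibitor of mTORC1 signaling, was scarce in both sections, with 60 UMIs and 4.17 CPM (3.18 to 5.37) in the control section, against 77 UMIs and 5.94 CPM (4.69 to 7.43) in the transgenic section. Its log2 ratio of 0.51 had an interval from 0.00 to 1.02, and the quadrants overlapped. The related Sesn1, also a p53 target, was lower, with 2254 and 925 UMIs (log2 ratio −1.13, −1.25 to −1.02), and Sesn3 was at 14.0 and 13.9 CPM.

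Other p53 targets, in lists drawn up with earlier results of these data known, gave a similar mixed picture. Over 4 lists with 32 measured genes, 26 had a log2 ratio above 0, 4 had one of at least 1 and 1 had one of −1 or lower, with a median of 0.45. The shares over all genes were 63.2%, 13.7% and 5.61%. All 12 death-linked targets had a ratio above 0, with a median of 0.63. The highest was Trp53inp1, which promotes the killing function of p53, at 18.7 and 51.0 CPM (log2 ratio 1.45, 1.24 to 1.66), and the lowest was Pidd1, with 26 and 24 UMIs (0.03, −0.83 to 0.89). Ei24 (0.04, −0.08 to 0.16) and Aen (0.06, −0.10 to 0.23) also had intervals that span 0. So did Pmaip1 (0.59, −0.38 to 1.58), from 17 and 23 UMIs, and Eda2r (0.40, −0.15 to 0.96), from 52 and 62 UMIs. TMM scaling, which moved the median of all genes from 0.20 to 0.05, shifts ratios by more than the values of Pidd1, Ei24 and Aen. The count of 12 thus holds for CPM.

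Of 8 arrest-linked targets, 6 had a ratio above 0, against 63.2% of all genes, with a median of 0.56. Btg2, an antiproliferative gene, was at 50.6 and 136 CPM (log2 ratio 1.43, 1.31 to 1.56). Psrc1 had a ratio of 1.07 from 9 and 17 UMIs, with an interval that spans 0 (−0.18 to 2.42), and Fbxw7, a ubiquitin ligase subunit, had the lowest at −0.91 (−1.04 to −0.77).

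Of 5 repair-linked targets, 4 had a ratio above 0, against 63.2% of all genes, with a median of 0.27. Xpc, a damage sensor of nucleotide excision repair, was highest at 0.53 (0.29 to 0.76), and Pcna, with 19 and 12 UMIs, was lowest at −0.51 (−1.69 to 0.60). Among 7 targets in metabolism and growth the median was 0.01. Abhd4 was at 51.6 and 106 CPM (log2 ratio 1.04, 0.91 to 1.17) and Sesn1, given above, was the lowest.

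The 6 other cyclin-dependent kinase inhibitors had smaller ratios than Cdkn1a, with 4 above 0, against 63.2% of all genes, and a median of 0.35. Cdkn1b was at 109 and 136 CPM (log2 ratio 0.32, 0.22 to 0.42), and Cdkn2c, the lowest of the list, at 30.0 and 23.9 CPM (−0.33, −0.55 to −0.12). Cdkn2b had the highest ratio, 2.11 (1.35 to 2.95), from 18 and 70 UMIs. Among the topoisomerase genes, Tdp2, which repairs topoisomerase-linked breaks, was highest at 0.39 and Top2a, the form of dividing cells, lowest at −0.74, from 26 and 14 UMIs with an interval that spans 0 (−1.79 to 0.25). Genes of dividing cells, which p21 lowers in textbook accounts, were mixed: 9 of 19 had a ratio above 0, against 63.2% of all genes. Their median was −0.17 and none was at 1 or −1. They ran from Bub1 at −0.85 (−2.40 to 0.56) to Ube2c at 0.82 (0.22 to 1.44). The median level over the 20 listed genes in the data was 2.89 CPM (control) and 3.40 CPM (transgenic). That is little above the stray signal, which reached 2.24 CPM, so a fall in many of these genes would be hard to see.

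Gdf15 and Sesn2 are also targets of the integrated stress response, in which the factor ATF4 is translated when protein synthesis is curbed. Atf4 transcript was at 111 and 120 CPM (log2 ratio 0.12, 0.01 to 0.22). Of 11 measured genes of this response, 10 had a ratio above 0, 4 had one of at least 1 and the median was 0.57. Over all genes these shares were 63.2% and 13.7%. Ddit4, which is also a p53 target, was at 42.6 and 370 CPM (log2 ratio 3.12, 3.0 to 3.24). Psat1, an enzyme of serine synthesis, had a ratio of 2.89 (2.41 to 3.41), the stress factor Atf3 one of 2.58 (2.29 to 2.88), and the folate enzyme Mthfd2 one of 1.19 (0.62 to 1.78). Chac1, an ATF4 target that degrades glutathione, went the other way at −1.35 (−1.71 to −0.99).

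The central question was whether Cdkn1a and Gdf15, the genes of the 10 that differed most between the sections, were high in the same spots of the transgenic section. At the resolution of spots they were not. Cdkn1a was at 590 CPM (572 to 610) in the 495 spots without a Gdf15 UMI, at 604 CPM (580 to 629) in the 256 spots with 1, and at 553 CPM (526 to 582) in the 172 spots with 2 or more. Cdkn1a was thus no lower where Gdf15 was not counted. In the spots with 0, 1 and 2 or more Gdf15 UMIs, erythroid markers were at 31628, 11621 and 7064 CPM, and their part was not tested. Conversely, the spots with at least 1000 UMIs were ranked by Cdkn1a per UMI and cut into 4 equal groups, a step chosen after the data were seen. Cdkn1a ran over these groups from 278 through 485 and 639 to 916 CPM. Gdf15 was at 64.0 CPM (55.1 to 73.9) in the group lowest in Cdkn1a, 55.6 and 56.7 CPM in the middle groups, and 52.2 CPM (44.6 to 60.7) in the highest, so all 4 intervals overlapped. Phlda3 was at 82.3 and 86.5 CPM in the lowest and highest groups, with overlapping intervals, whereas Bax was at 151 CPM (138 to 166) and 182 CPM (168 to 198), which did not overlap. Erythroid markers moved with this order, at 53461 CPM in the lowest group and 8756 to 12694 CPM in the others, and their part was not tested.

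In 846 transgenic spots thinned to equal depth, 32.85% held both Cdkn1a and Gdf15, and the product of their single shares was 32.87%, a ratio of 1.00. This ratio has little room to move because Cdkn1a was in nearly all spots. Over 923 spots the Pearson correlation of the log levels was 0.04 and the Spearman correlation −0.02, in sparse counts from a single library. In the control section the same shares were 1.08% and 1.03%, a ratio of 1.04, and Gdf15 was at 3.93 CPM (2.69 to 5.55) in spots without and 4.59 CPM (2.10 to 8.71) in spots with 2 or more Cdkn1a UMIs.

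**Figure D3:**
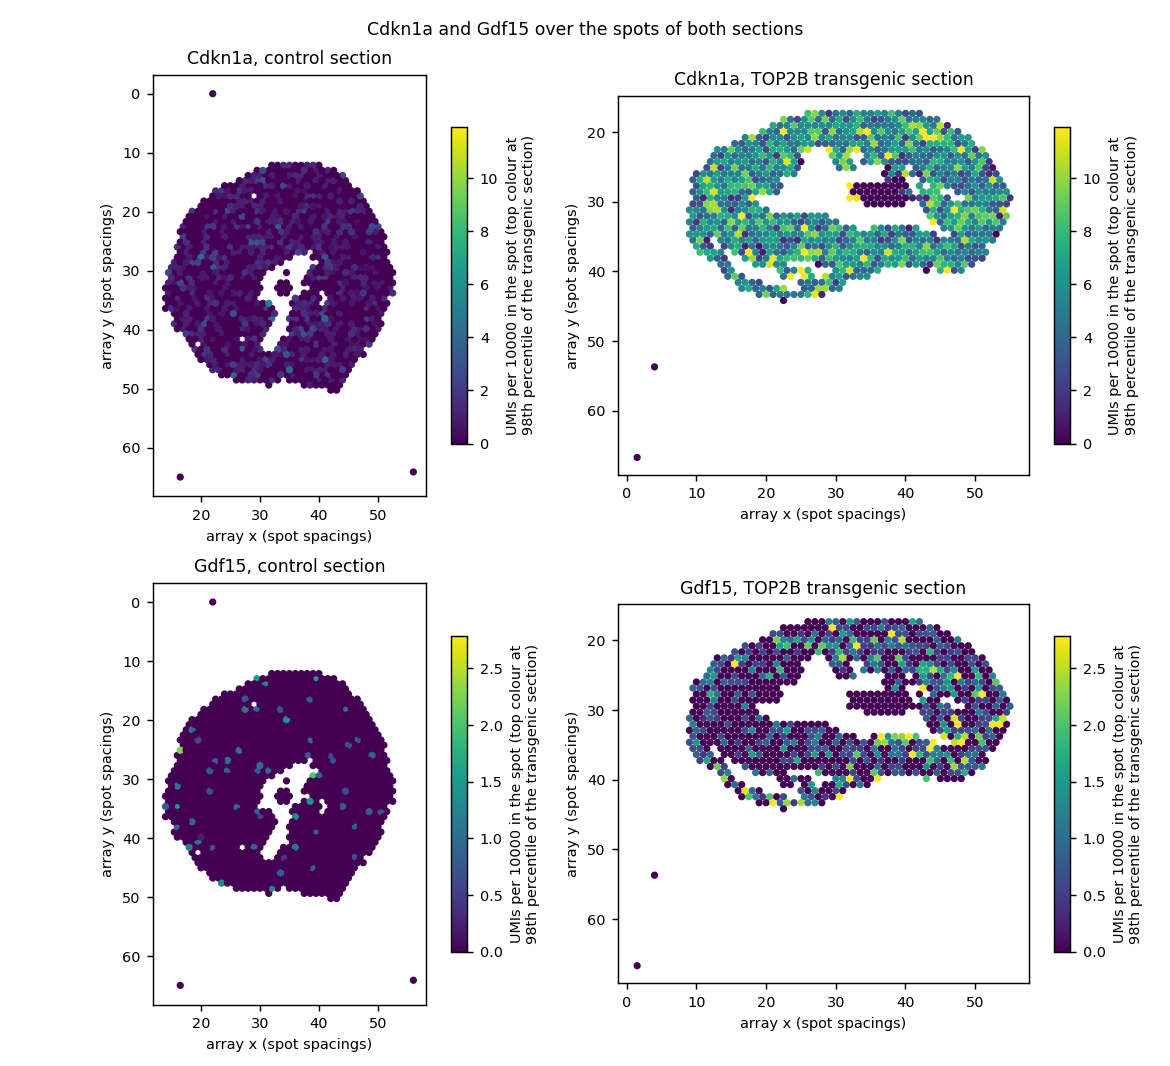
Cdkn1a (top) and Gdf15 (bottom) in each spot of the control section (left) and the TOP2B transgenic section (right), as UMIs per 10000 in the spot, with array positions in spot spacings on both axes and one color scale per gene. Cdkn1a covers the transgenic tissue (95.8% of spots) except a small patch, whereas Gdf15 is patchy (46.3% of spots) and both are sparse in the control section (41.3% and 4.7%).

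Spots were also summed into blocks of 4 array rows by 8 columns with at least 8 spots, 65 in the transgenic section. Over these blocks the Pearson correlation of Cdkn1a with Gdf15 was 0.47, but the Spearman correlation was 0.06. The blocks rich in erythroid markers stood apart in CPM, which is taken of all UMIs, erythroid ones included. In 3 blocks erythroid markers made up at least 20% of UMIs (38.1% to 81.3%), and there Cdkn1a was at 15.1, 157 and 409 CPM and Gdf15 at 0, 0 and 42.6 CPM. In the other 62 blocks Cdkn1a lay between 470 and 843 CPM and Gdf15 between 7.70 and 133 CPM. The CPM of other genes falls as the erythroid share rises, and levels per non-erythroid UMI were not computed. The blocks at 0 CPM of Gdf15 held 66287 and 38103 UMIs in total, so few Gdf15 UMIs could be counted there. Without the 10% of spots richest in erythroid markers, 58 blocks remained and the correlations were −0.10 (Pearson) and −0.08 (Spearman). The blocks share a library and differ in depth, so these values are descriptions.

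**Figure D4:**
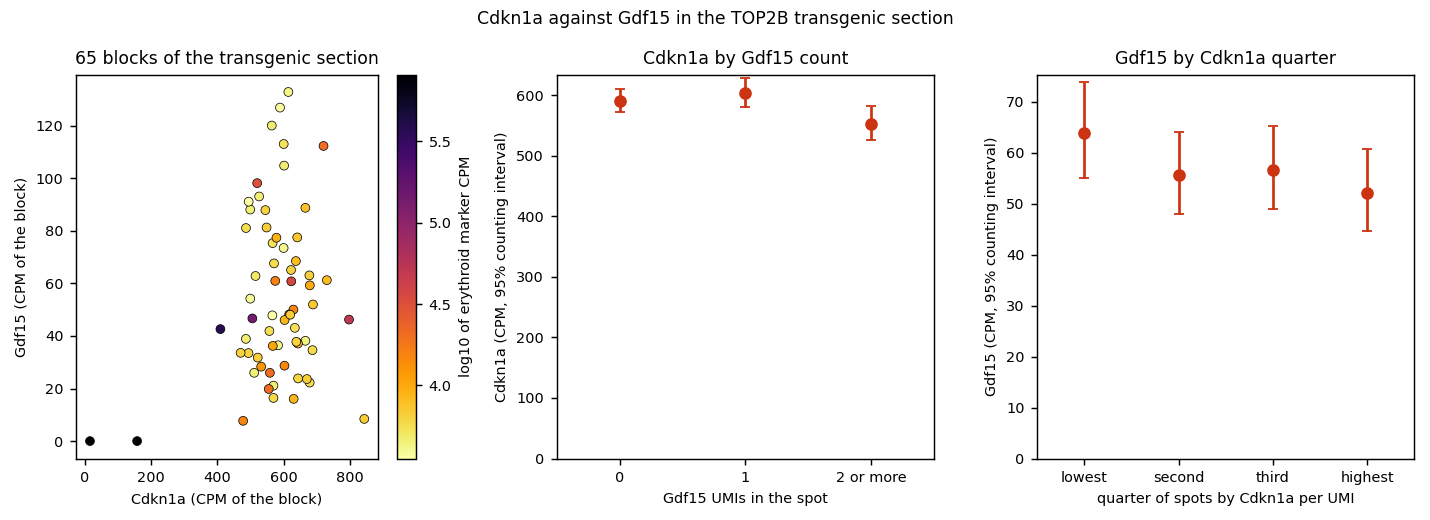
Left, CPM of Cdkn1a (horizontal) and Gdf15 (vertical) in 65 blocks of the transgenic section, colored by the log10 of erythroid marker CPM; middle, Cdkn1a CPM in spots with 0, 1 and 2 or more Gdf15 UMIs; right, Gdf15 CPM in 4 equal groups of spots ordered by Cdkn1a per UMI; bars are 95% counting intervals. The blocks at 15.1 and 157 CPM of Cdkn1a have no Gdf15 UMI among 66287 and 38103 UMIs in total. Most of these UMIs are erythroid, which lowers the CPM of other genes. Over spots, Cdkn1a stays between 553 and 604 CPM whatever the Gdf15 count.

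Both genes varied over the transgenic section by more than depth and counting give. With the spread that depth and counting alone would give set to 1, the variance between spots was 1.49 for Cdkn1a and 1.44 for Gdf15, and 1.45 and 1.5 without the erythroid-rich spots. Ccng1 stood at 1.47 and 1.43, and at 1.38 in the control section, where Cdkn1a was at 1.11 and Gdf15 at 1.09. Trp53 (0.99), Bax (1.02) and Mdm2 (1.03) were close to 1. For the same relative spread this score grows with the count per spot. It therefore does not rank genes or sections at different levels. The median transgenic spot held 8 UMIs of Cdkn1a, 6 of Ccng1 and 0 of Gdf15. Gadd45a went from 1.30 to 1.08 when the erythroid-rich spots were left out. Moran's I, the authors' score of how alike neighboring spots are, was 0.35 for Cdkn1a, 0.31 for Ccng1, 0.15 for Phlda3, 0.14 for Bax and 0.10 for Gdf15 in the transgenic section. In the control section the highest of the 10 was 0.05. These scores were taken as deposited and were not recomputed without the erythroid-rich spots. Levels at the tissue edge and in the interior were close: Cdkn1a was at 558 and 598 CPM (log2 ratio −0.10, −0.17 to −0.03) and Gdf15 at 55.2 and 57.6 CPM (−0.06, −0.30 to 0.18).

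Other pairs of the group did vary together. Spots with 2 or more Gdf15 UMIs had more Bax than spots with none, 199 CPM (183 to 217) against 153 CPM (143 to 162). The same held for Phlda3, at 106 CPM (93.8 to 118) against 80.9 CPM (74.1 to 88.3), and for Trp53, at 65.8 CPM (56.6 to 76.1) against 50.4 CPM (45 to 56.3). The level of Ccng1 was 446 CPM (421 to 471) in the former and 481 CPM (464 to 499) in the latter.

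Over the 58 blocks left without erythroid-rich spots, the Spearman correlation of Gdf15 was 0.63 with Phlda3, 0.61 with Bax, 0.58 with Trp53 and 0.42 with Bbc3. All 10 pairs among these 5 genes, picked after their values were seen, lay between 0.26 and 0.68. Cdkn1a was not part of this pattern, with correlations between −0.19 and 0.13 to the other 9 genes. Ccng1 ran opposite to it, from −0.64 with Phlda3 to −0.33 with Trp53.

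These patterns moved with cell type markers. In the same 58 blocks the 5 genes correlated with the summed fibroblast markers at 0.53 to 0.71 and with the summed cardiomyocyte markers at −0.68 to −0.54. Ccng1 did the reverse, at −0.62 and 0.62. The values for Cdkn1a were −0.28 and 0.13. Of the fibroblast sum of 3423 CPM in the transgenic section, Col1a2 gave 1746 CPM. Its log2 ratio between the sections was 2.66, the highest of the 7 fibroblast markers, and Gsn was lowest at 0.0009. All 6 stress genes of cardiomyocytes with at least 20 UMIs had a log2 ratio above 0 between the sections, against 63.2% of all genes. These were Rcan1 at 0.93, Acta1 at 2.62, Ankrd1 at 3.68, Nppa at 6.21, Sprr1a at 7.43 (10 control UMIs) and Myh7 at 7.87. Nppb, also on the list, fell under that filter, at 0.28 CPM (control) and 1.00 CPM (transgenic). The summed stress genes, of whose 530769 transgenic UMIs Nppa gave 262300, correlated at 0.78 with Phlda3, 0.54 with Gdf15 and −0.18 with Cdkn1a. Taken singly over these blocks, Gdf15 had Pearson correlations of 0.64 with Sprr1a, 0.50 with Nppa, 0.33 with Ankrd1 and −0.09 with Myh7. All 7 fibroblast markers were present in the transgenic section, at 2631 to 4190 CPM summed per quadrant, and in spots with 0, 1 and 2 or more Gdf15 UMIs they were at 3087, 3640 and 3890 CPM. Depth ran along too, since these spots had medians of 13386, 15170 and 16194 UMIs, and erythroid markers fell, as given above. The summed genes of the integrated stress response, of whose 8114 UMIs Ddit4 gave 4792, correlated at −0.20 to 0.24 with the 10 genes. This sum was 576 CPM (549 to 604) in the group of spots lowest in Cdkn1a and 648 CPM (620 to 676) in the highest. The part of cell composition and depth in the co-variation was not tested.

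**Figure D5:**
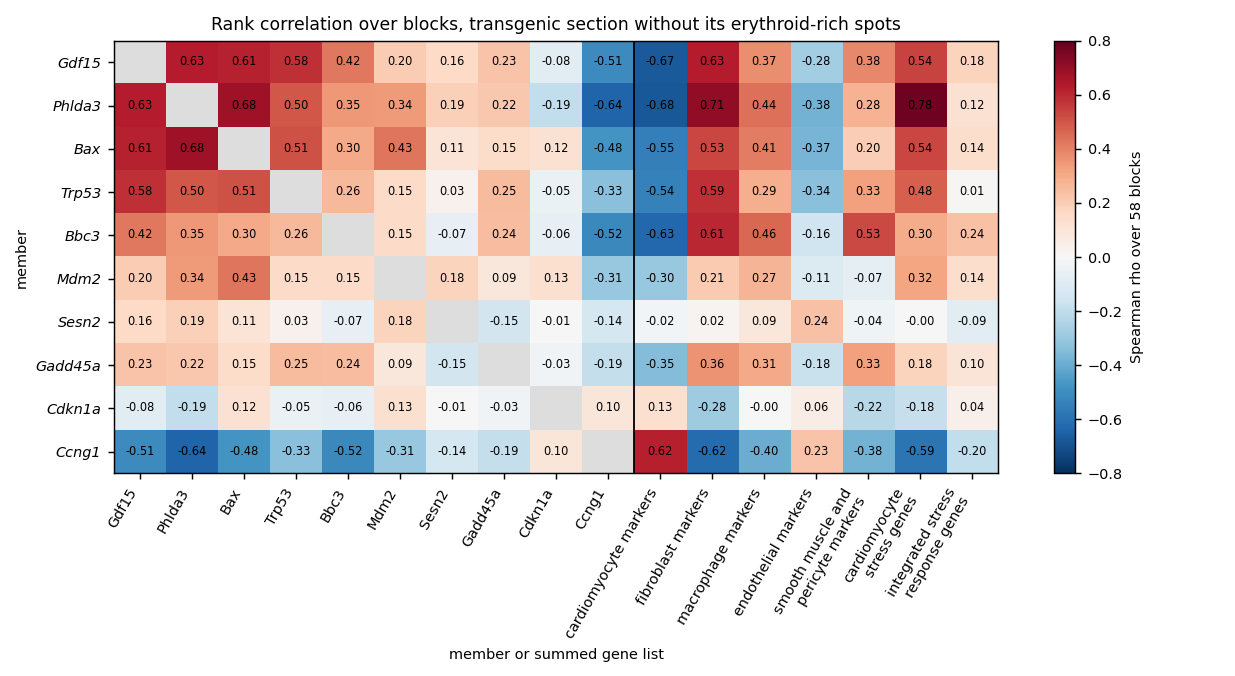
Spearman correlation (numbers and color, from −0.8 in blue to 0.8 in red) of each gene (rows) with the other 9 genes and with summed gene lists (columns) over 58 blocks of the transgenic section, without its 10% of spots richest in erythroid markers. Gdf15, Phlda3, Bax, Trp53 and Bbc3 correlate with each other at 0.26 to 0.68 and with fibroblast markers, Ccng1 runs opposite, and the values of Cdkn1a to the other 9 genes lie between −0.19 and 0.13.

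Over all 45 pairs of the 10 genes, the share of thinned spots with both genes was above the product of the single shares for 29 pairs in the transgenic and 17 in the control section. These counts cannot be compared as co-location. Transgenic Cdkn1a and Ccng1 were in 98.7% and 97.0% of thinned spots, so their ratios are held near 1, and Trp53 with Cdkn1a, at 1.0002, counts as above. In the control section Cdkn1a was in 32.3% and Ccng1 in 99.8%. The ratio ran from 0.90 (Gdf15 with Sesn2) to 1.29 (Sesn2 with Phlda3) in the transgenic section with a median of 1.00. Both ends are pairs with Sesn2, which was in 4.56% of thinned transgenic spots. Gdf15 had ratios of 1.05 with Phlda3, 1.05 with Bax and 1.07 with Trp53.

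Among 4434 genes with at least 500 transgenic UMIs, the genes most like Gdf15 over the 65 blocks were Islr (Pearson 0.78), Uchl1 (0.78), Gpx3 (0.78), Clu (0.77) and Igfbp7 (0.77), where the median of all genes was 0.42. In this order Phlda3 had rank 15, Bax 96, Trp53 97 and Cdkn1a 1760. Without the erythroid-rich spots the same 5 genes stood between 0.65 and 0.71, with a median of all genes of 0.07. The genes most like Cdkn1a were Mdp1, Nedd4, Rab2a, Adprhl1 and Map4, at 0.93 to 0.94, where the median of all genes was 0.63 and Gdf15 had rank 3532. Without the erythroid-rich spots the values of these 5 lay between −0.02 and 0.32, with a median of all genes of −0.01.

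The differences between the sections in Cdkn1a and Gdf15 held in parts of the tissue. That of Bbc3 was smaller in the cardiomyocyte-rich spots, as given above. In the 50% of spots with the highest share of cardiomyocyte markers the log2 ratio was 3.69 for Cdkn1a and 3.54 for Gdf15. Without the 10% of spots richest in erythroid markers it was 3.59 for Cdkn1a and 3.79 for Gdf15. Fibroblast and macrophage markers were higher in the transgenic section as given above, and their part in the levels of Gdf15, Bax and Phlda3 was not tested.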

How the data were processed

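Per the file headers and the labels, the authors counted probe UMIs per spot with Space Ranger 2.0.0 and deposited them as raw counts for the spots over tissue. They also deposited a table of Moran's I, a spatial autocorrelation score per gene, and its p-value columns were not used. Their Wilcoxon test over spots was not repeated, since spots of 1 section are not replicates.

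Counts were summed per section and scaled to CPM, with exact Poisson intervals for levels, exact binomial intervals for ratios and Clopper-Pearson intervals for shares (95%), all for counting error only. A count of 0 allows up to 3 counts, or 0.209 CPM (control) and 0.232 CPM (transgenic). Scripts (Python 3.11.15, scipy 1.17.1) were tested on simulated data. The alternatives were TMM (edgeR 4.0.16) and DESeq2 1.42.0 size factors, other totals, depths and subsets of spots. The members and gene lists were chosen with earlier results of these data known. Besides the 10 members and Top2b, the rule for named genes took the highest and lowest gene of each list, those past 2-fold where these are 5 or fewer, and the 5 genes most like Cdkn1a and Gdf15. Cell type marker lists are given mainly as sums, which departs from that rule. Of their genes, Tnnt2, Col1a2 and Gsn were named after their values were seen. Mdm4, Atm, Gadd45gip1, Sesn3, Cdkn1b, Atf4, Gfral, Aen, Ei24, Pmaip1, Eda2r and Nppb were named after their values were seen. Promoter search settings were chosen after the sequences were seen. List genes with no single entry, such as Ddit3, were not analysed here.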

Additional observations from a re-analysis of the deposited data

How the results depend on the processing

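Of the 10 genes, 9 kept the sign of their log2 ratio under every alternative run, and Mdm2, at 0.02, took either sign (−0.14 with TMM factors). The log2 ratio of Cdkn1a was 3.38 with TMM factors, 3.39 with DESeq2 size factors and 3.69 in the 50% of spots richest in cardiomyocyte markers, where the median of the 10 genes was 0.39. Of the other p53 targets, 16 of the 20 with at least 200 UMIs had a ratio above 0, against 63.2% of all genes with at least 20 UMIs. The share of spots with a UMI was higher in the transgenic section by 66.4 points for Cdkn1a after thinning, by 54.5 without thinning and by 57.6 at the median depth. For Gdf15 these values were 30.1, 41.6 and 40.6 points. The block correlation of Cdkn1a with Gdf15 turned from 0.47 to −0.25 (Pearson, 24 blocks) and −0.18 (Spearman) in the cardiomyocyte-rich spots, and to −0.096 (Pearson) and −0.083 (Spearman) without the erythroid-rich spots (58 blocks). The cause was not tested. Of 458 values under alternatives, 394 stayed close to the main value, 62 moved and 2 were labeled reversed, a label that not every value could take. Close meant inside a counting interval for levels and shares. For counts of genes it meant within a fixed factor, and for correlations within a fixed distance. No paired analysis was possible because each genotype has 1 section. Depth limits Gdf15 in the control section, Sesn2, Atr and Trp63, and the genotype cannot be told apart from the animal, the section or its processing.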
